A study of Mus musculus with 6 samples.

Results

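The 4 genes of the RGK family of small GTPases (Rrad, Gem, Rem1 and Rem2) were described together with 5 genes of the voltage-gated calcium channels of the heart (Cacna1c, Cacna1g, Cacna1h, Cacnb2 and Cacna2d1). These 9 genes were taken by name from the 54532 genes of the deposited expression table. Rrad was chosen by its measured rise in the Mc4r KO hearts, so its values are given as a description with no test, and the other members are the rest of its family and the channel genes. The study compared cardiac RNA of 3 WT and 3 Mc4r KO animals, the latter with a homozygous knockout of the melanocortin-4 receptor gene. All 6 were 12 weeks of age and, as the discussion of the study has it, male, and were littermates from matings of heterozygous parents on a C57B/6/N background, kept on standard chow. Each mouse gave 1 library of polyadenylated RNA, so the tests measure the spread between mice. The labels name the tissue as heart in one field and as muscle in another, and the discussion of the study names the left ventricle.

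RGK proteins are Ras-like GTPases that sit at the plasma membrane and bind the beta subunits of voltage-gated calcium channels. When overexpressed they strongly reduce the L-type calcium current, which enters the cardiomyocyte during each beat and triggers contraction. Rad, the product of Rrad, is the main RGK protein of the heart muscle. Protein kinase A phosphorylates it during adrenergic stimulation, which releases the channel from its block. The cardiac L-type channel is built from a pore (Cacna1c), a beta subunit inside the cell (mainly Cacnb2) and an alpha2delta subunit on the outside (mainly Cacna2d1). Cacna1g and Cacna1h encode the pores of T-type channels, which open at lower voltage, work without a beta subunit and contribute to pacemaking.

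The family can be recognised at the very end of its coding sequence. RGK proteins carry no lipid anchor there, unlike most relatives of Ras, and share a conserved stretch in its place. The last 60 coding bases of each gene, stop codon included, are shown to let this shared end be seen. They were read from the GENCODE M21 transcripts and placed on GRCm38, at chr8:104628451-104628510 on the minus strand for Rrad, chr4:11713694-11713753 on the plus strand for Gem, chr2:152634658-152634717 on the plus strand for Rem1 and chr14:54479686-54479745 on the plus strand for Rem2. Capitals mark the 23 bases that are identical in all 4 genes.
Rrad: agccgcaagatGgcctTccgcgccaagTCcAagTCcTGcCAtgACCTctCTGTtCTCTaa
Gem: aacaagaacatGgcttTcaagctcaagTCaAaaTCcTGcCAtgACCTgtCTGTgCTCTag
Rem1: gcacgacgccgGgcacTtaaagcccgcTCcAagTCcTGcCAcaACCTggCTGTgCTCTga
Rem2: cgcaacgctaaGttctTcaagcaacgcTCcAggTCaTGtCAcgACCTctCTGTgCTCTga

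Nearly all of the capitals lie towards the stop codon. Rrad and Gem had 44 of these 60 bases in common, against 36 for Rrad with Rem1 and 36 for Rrad with Rem2. The whole coding sequence has 924 bases in Rrad, 888 in Gem, 894 in Rem1 and 1026 in Rem2. Pairwise alignments with gaps left out covered 865 bases for Rrad with Gem, 862 with Rem1 and 891 with Rem2. Over these aligned bases, identity to Rrad was 66.6% for Gem, 67.2% for Rem1 and 68.5% for Rem2. The longest exact run that Rrad shared with another RGK gene was 23 bases, with Rem1. No word of 50 bases in Gem, Rem1 or Rem2 occurred in any other gene, and in Rrad 5.84% of such words did, all in Gm33023. Reads of the 4 genes could therefore be told apart by sequence at that length.

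The deposited values are FPKM, that is, fragments per kilobase of gene length after scaling to library size. This puts genes of different length on a common scale. Comparisons between libraries also depend on the scaling, so values under other scalings are given as well. Multiplied by gene length, the FPKM were whole multiples of 1 step in each library, which returned the count behind each value. In FPKM the unit counted is the fragment, and these counts are called reads here. The reads counted on genes ranged from 14767929 to 16047003 in the WT libraries and from 14691076 to 15649074 in the Mc4r KO libraries. Mc4r had 2 reads in WT replicate 3 and 0 in the other 5 libraries, below a floor of 3 reads, so the genotype could not be checked from this gene. Mitochondrial genes held 47.1% to 59.3% of the summed FPKM in WT and 43.0% to 46.6% in Mc4r KO hearts, without overlap. WT replicate 3, at 47.1%, lay close to the Mc4r KO libraries and far from the 59.3% and 57.4% of WT replicates 1 and 2. Its correlation over genes was 0.946 with WT replicate 1 and 0.952 with WT replicate 2. With Mc4r KO replicates 1, 2 and 3 it was 0.962, 0.951 and 0.952, so only replicate 1 stood above WT replicate 2 by more than a trace. Cardiomyocyte markers were all present and their summed FPKM ranged from 12271 to 12942 in WT and from 14846 to 16379 in Mc4r KO hearts. Most of that gap lay in Actc1, at 4568 to 5495 FPKM in WT and 7123 to 8307 FPKM in Mc4r KO hearts. Of the 7 markers, Actc1, Ryr2 and Myl2 were higher without overlap and the other 4 overlapped, among them Pln at 452 to 690 FPKM in WT and 434 to 470 FPKM in Mc4r KO hearts. Of the 7 skeletal muscle markers, Myh4 was at 0 in all 6 libraries, while 3 (Tnnt3, Mylpf and Tnni2) had reads in all 6. The summed FPKM of that list was 1.04 to 2.24 in WT and 1.27 to 2.29 in Mc4r KO hearts. WT replicate 3 also stood apart in its atrial markers, with a summed FPKM of 747 against 28.6 and 95.2 in the other WT libraries and 6.29 to 136 in the Mc4r KO libraries. Values without it are given beside the results that it moved most. In whole tissue, fewer cells of a type and less RNA per cell cannot be told apart.

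Rrad (ENSMUSG00000031880; GRCm38 chromosome 8, 104628070 to 104631327, minus strand) was the most abundant member in both groups. Its level was 28.5, 26.4 and 27.4 FPKM in WT replicates 1, 2 and 3, from 633, 599 and 737 reads. In Mc4r KO replicates 1, 2 and 3 it was 75.9, 66.5 and 65.8 FPKM, from 1858, 1594 and 1666 reads. The groups were far apart, and the lowest Mc4r KO library was 2.31 times the highest WT library. The mean level was 27.5 ± 1.01 FPKM in WT and 69.4 ± 5.62 FPKM in Mc4r KO hearts (SD, n = 3 each), a ratio of 2.53. On the log2(FPKM + 0.1) scale the difference was 1.33. It stayed between 1.14 and 1.37 over 19 alternative ways of processing the data, the lowest with the FPKM scaled to their sum outside the mitochondrial chromosome. Expressed as a rank, 1151 genes had a higher mean FPKM than Rrad in WT hearts and 531 in Mc4r KO hearts. The cardiomyocyte marker sum and the mitochondrial share, given above, also separated the groups. With the mitochondrial share as a covariate the log2 difference of Rrad was 1.33. Because the share itself differed between the groups, that fit cannot tell the share and the genotype apart. The part of the cardiomyocyte marker sum in the level of Rrad was not tested. Gm33023 lies on the opposite strand over 8.94% of the exon bases of Rrad. The sources used here do not say whether counting used strand, so reads in that overlap cannot be told apart. Gm33023 stood at 0.664 to 0.886 FPKM in WT and 0.652 to 1.08 FPKM in Mc4r KO hearts, and its part in the level of Rrad was not tested.

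Gem (ENSMUSG00000028214; chromosome 4, 11704457 to 11714752, plus strand), the RGK gene closest to Rrad at the coding end printed above, lay in the opposite direction at a much lower level. It measured 2.66, 3.18 and 3.13 FPKM in the WT libraries, from 79, 96 and 112 reads. The Mc4r KO libraries gave 1.53, 1.19 and 1.75 FPKM, from 50, 38 and 59 reads. Every WT value was above every Mc4r KO value. The means were 2.99 ± 0.283 and 1.49 ± 0.282 FPKM (SD, n = 3 each), 2.01 times as much in WT. The differences of all genes were tested with limma on log2(FPKM + 0.1), over the 18035 genes whose mean FPKM reached 0.1, and a gene was called at a Benjamini-Hochberg adjusted p under 0.05 with an absolute log2 fold change above 0.75. For Gem the log2 fold change was -0.97 (SE 0.17, 95% interval -1.36 to -0.58) with an adjusted p of 0.0579 in limma, which just missed the threshold. Gem was negative in all 19 alternatives and was called in 5 of them, and its adjusted p ranged from 0.0297 to 0.245. Leaving out WT replicate 3 was 1 of these 5, with an adjusted p of 0.0364 in limma. The fibroblast marker sum moved the same way as Gem, from 141 to 148 FPKM in WT and from 106 to 116 FPKM in Mc4r KO hearts without overlap. That sum was carried by Dcn, at 109 to 125 FPKM in WT and 77.1 to 87.0 FPKM in Mc4r KO hearts. Of its 4 genes, Pdgfra and Dcn were lower without overlap, against 12.4% of all genes tested. Tcf21 overlapped, and Col1a1 overlapped at 9.97, 15.4 and 20.9 FPKM in WT and 21.4, 21.9 and 17.2 FPKM in Mc4r KO hearts. The macrophage markers Csf1r and Cd68 were also lower without overlap, while Adgre1 and the summed FPKM of that list overlapped. The part of fibroblasts and macrophages in the level of Gem was not tested.

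Rem1 (ENSMUSG00000000359; chromosome 2, 152626951 to 152635198, plus strand), whose product also inhibits L-type channels, gave close values in the 2 groups. It stood at 2.80, 3.62 and 2.75 FPKM in WT and at 3.20, 2.90 and 2.92 FPKM in Mc4r KO hearts, from 85 to 112 reads per library. All 3 Mc4r KO values fell inside the WT range. The log2 fold change was -0.01, with a 95% interval from -0.34 to 0.31 and an adjusted p of 0.974 in limma. Rem2 (ENSMUSG00000022176; chromosome 14, 54476100 to 54480431, plus strand), the RGK gene best known from the nervous system, had 0 reads in all 6 libraries. This allows a level of up to 0.0945 FPKM at a floor of 3 reads, a limit that covers counting error only.

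**Figure D1:**
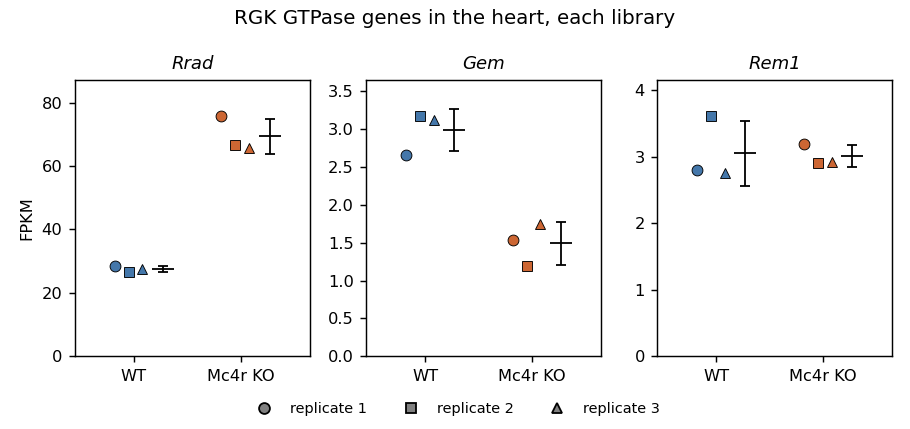
Level of 3 RGK genes in FPKM (vertical axes from 0, a separate scale for each gene) in WT and Mc4r KO hearts, with 1 symbol per library and the mean ± SD of 3 libraries beside them. Rrad lies higher in all Mc4r KO libraries (65.8 to 75.9 against 26.4 to 28.5), Gem lies lower (1.19 to 1.75 against 2.66 to 3.18) and Rem1 overlaps. Rem2 had 0 reads and is not drawn.

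With Rrad and Gem on opposite sides, the make-up of the RGK transcripts differed between the groups. This is a description, since it contains the values by which Rrad was chosen. The summed FPKM of Rrad, Gem and Rem1 was 33.9, 33.2 and 33.3 in WT, against 80.6, 70.6 and 70.5 in Mc4r KO hearts. Rrad made up 83.9%, 79.6% and 82.4% of that sum in WT and 94.1%, 94.2% and 93.4% in Mc4r KO hearts. The share of Gem was 7.85% to 9.56% in WT and 1.68% to 2.48% in Mc4r KO hearts. Rem1, whose own level overlapped, took 8.24% to 10.9% of the WT sum and 3.97% to 4.14% of the Mc4r KO sum. Rrad outnumbered Gem by 8.32 to 10.7 times in WT libraries and by 37.7 to 56.0 times in Mc4r KO libraries. Against the pore gene of the L-type channel, the ratio of Rrad to Cacna1c was 2.28, 2.03 and 2.22 in WT and 6.08, 4.83 and 4.46 in Mc4r KO hearts. Its ratio to the beta subunit gene Cacnb2 had a mean of 6.25 ± 0.638 in WT and 15.6 ± 1.64 in Mc4r KO hearts (SD, n = 3 each). Both ratios compare genes within a library, so they do not change with a single scaling factor per library. Quantile normalization is not such a factor and can change them. These are ratios of transcripts, and no protein was measured here.

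**Figure D2:**
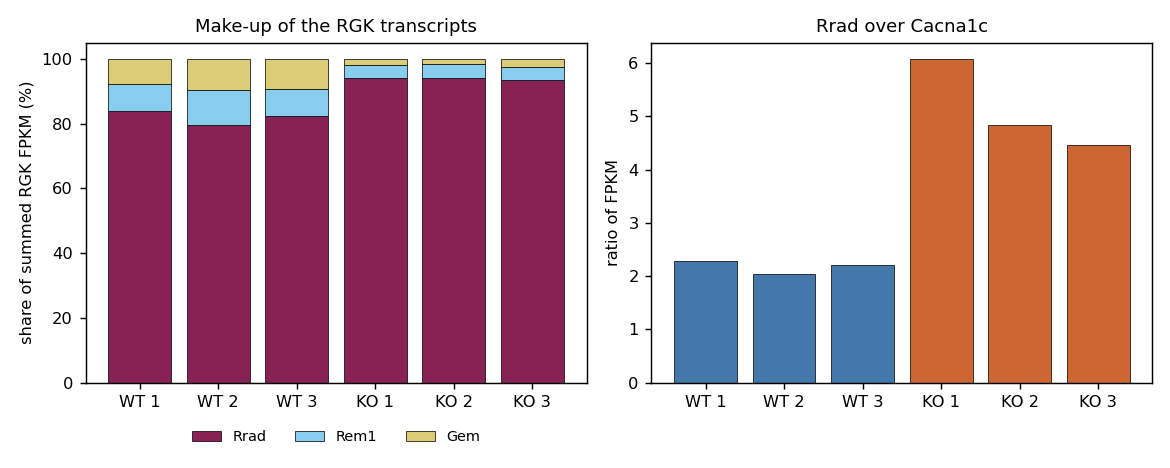
Left, share of each RGK gene in the summed FPKM of Rrad, Rem1 and Gem (percent, stacked to 100) in each of the 6 libraries. Right, ratio of the FPKM of Rrad to that of Cacna1c in each library, on an axis from 0. The share of Rrad is 79.6% to 83.9% in WT and 93.4% to 94.2% in Mc4r KO libraries, and the ratio is 2.03 to 2.28 against 4.46 to 6.08.

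None of the 3 genes of the cardiac L-type channel passed the test, and their values overlapped between the groups. Cacna1c (ENSMUSG00000051331; chromosome 6, 118587240 to 119196418, minus strand), the pore, measured 12.5, 13.0 and 12.4 FPKM in WT and 12.5, 13.8 and 14.8 FPKM in Mc4r KO hearts, from 3724 to 5016 reads. Mc4r KO replicates 2 and 3 lay above all WT libraries and replicate 1 lay among them. Its log2 fold change was 0.11 (SE 0.09, 95% interval -0.10 to 0.33) with an adjusted p of 0.530 in limma, and the sign turned under quantile normalization and under scaling outside the mitochondrial chromosome.

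Cacnb2 (ENSMUSG00000057914; chromosome 2, 14603088 to 14987908, plus strand), the beta subunit to which RGK proteins bind, measured 4.40, 4.78 and 4.07 FPKM in WT and 4.33, 4.57 and 4.44 FPKM in Mc4r KO hearts. The Mc4r KO values all lay inside the WT range. The log2 fold change of 0.01 had a 95% interval from -0.23 to 0.25 and an adjusted p of 0.960 in limma. Over 7.32% of its exon bases other genes lie on the opposite strand (Gm10848, Gm10849 and Gm13269), so part of its reads could belong to them. Cacna2d1 (ENSMUSG00000040118; chromosome 5, 15934691 to 16374511, plus strand), the alpha2delta subunit that helps to bring the pore to the membrane, measured 20.1, 18.4 and 17.4 FPKM in WT and 19.7, 18.6 and 14.1 FPKM in Mc4r KO hearts. Only Mc4r KO replicate 3 was below the WT range. Its log2 fold change was -0.11 (95% interval -0.43 to 0.22) with an adjusted p of 0.701 in limma, and 0.04 without that library.

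Added together, Cacna1c, Cacnb2 and Cacna2d1 gave 37.0, 36.2 and 33.9 FPKM in the WT libraries and 36.5, 37.0 and 33.3 FPKM in the Mc4r KO libraries. The means were 35.7 ± 1.62 and 35.6 ± 2.01 FPKM (SD, n = 3 each), with a two-sided exact permutation p of 0.9, where 3 mice against 3 cannot give less than 0.1. The difference of -0.103 FPKM depended on the scaling and on single libraries. It was -5.07 FPKM with scaling outside the mitochondrial chromosome (38.4 against 33.4 FPKM, exact permutation p = 0.3), -2.49 FPKM with quantile normalization, -1.01 FPKM without WT replicate 3 and 1.05 FPKM without Mc4r KO replicate 3. The balance between the subunits also overlapped, with 0.329 to 0.368 Cacnb2 per Cacna1c in WT and 0.301 to 0.347 in Mc4r KO hearts, and 1.41 to 1.62 Cacna2d1 per Cacna1c in WT and 0.953 to 1.57 in Mc4r KO hearts. The lowest value of both ratios was that of Mc4r KO replicate 3.

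**Figure D3:**
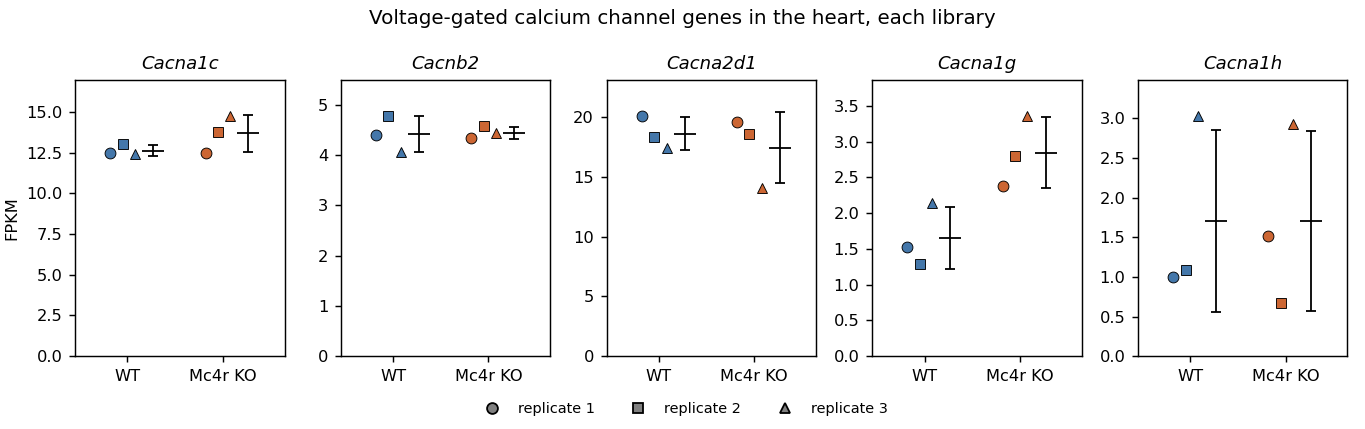
Level of 5 calcium channel genes in FPKM (vertical axes from 0, a separate scale for each gene) in WT and Mc4r KO hearts, with 1 symbol per library and the mean ± SD of 3 libraries beside them. The 3 L-type genes on the left overlap between the groups, Cacna1g lies higher in all Mc4r KO libraries (2.38 to 3.36 against 1.29 to 2.14), and Cacna1h spreads from 0.667 to 3.03.

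Neither of the T-type pore genes was called, and they were not tested against each other. Cacna1g (ENSMUSG00000020866; chromosome 11, 94408391 to 94474198, minus strand) measured 1.53, 1.29 and 2.14 FPKM in WT, from 219, 188 and 369 reads, and 2.38, 2.80 and 3.36 FPKM in Mc4r KO hearts, from 375, 431 and 547 reads. The groups did not overlap, although the highest WT library, replicate 3, came close to the lowest Mc4r KO library. The means were 1.65 ± 0.436 and 2.85 ± 0.492 FPKM (SD, n = 3 each), 1.72 times as much in Mc4r KO hearts. The log2 fold change was 0.76 (SE 0.21, 95% interval 0.27 to 1.26) with an adjusted p of 0.120 in limma, so it was not called. It was positive in all 19 alternatives, from 0.30 to 0.96, and called in 3 of them. Leaving out WT replicate 3 was among these 3 and gave 0.96 with an adjusted p of 0.0299 in limma. The lowest value, 0.30, came with the mitochondrial share of each library as a covariate, where the adjusted p was 0.752. Set against Cacna1c within each library, Cacna1g stood at 0.123, 0.0993 and 0.173 in WT and at 0.191, 0.203 and 0.228 in Mc4r KO hearts, again without overlap.

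Cacna1g is known from the sinoatrial and atrioventricular nodes. Of the 5 nodal and conduction markers, 4 had reads in all 6 libraries, and the summed FPKM of the list was 3.498 to 4.97 in WT and 6.08 to 7.86 in Mc4r KO hearts. Hcn4, the pacemaker channel gene, was the 1 marker of this list without overlap, at 1.53 to 1.63 FPKM in WT and 2.71 to 4.86 FPKM in Mc4r KO hearts. Of all genes tested, 14.1% were higher without overlap. Isl1 was at 0 in 5 libraries. Whether these markers have a part in the level of Cacna1g was not tested.

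Cacna1h (ENSMUSG00000024112; chromosome 17, 25374285 to 25433783, minus strand) varied more between mice of 1 group than any other member with reads. It measured 1.002, 1.08 and 3.03 FPKM in WT and 1.52, 0.667 and 2.92 FPKM in Mc4r KO hearts. One library in each group, replicate 3 in both, was far above the other two, and the coefficient of variation was 67.3% in WT and 66.9% in Mc4r KO hearts. The group means were 1.71 and 1.703 FPKM, and the log2 fold change of -0.04 had a 95% interval from -1.39 to 1.31 with an adjusted p of 0.981 in limma. It rested on single libraries, with 0.44 without WT replicate 3, 0.47 without Mc4r KO replicate 2 and -0.52 without Mc4r KO replicate 3, and was -1.64 with the mitochondrial share as a covariate. The high WT library was the one with the high atrial markers, while the high Mc4r KO library had an atrial marker sum of only 43.7 FPKM. At 1.62% of its exon bases Cacna1h overlaps Tpsg1 on the opposite strand. The summed FPKM of both T-type genes was 2.53, 2.38 and 5.17 in WT and 3.90, 3.47 and 6.29 in Mc4r KO hearts, with overlap, and Cacna1g supplied 41.4% to 60.4% of it in WT and 53.5% to 80.7% in Mc4r KO hearts.

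Leaving out Rrad, 7 of the other 8 members had enough reads to be tested and 0 of them were called by limma, where 0.46% of all genes tested were called. At an unadjusted p under 0.05, limma gave 2 of the 7, Gem and Cacna1g, against 20.9% of all genes. Gem and Cacna1g were both called in 3 alternatives, with array weights, with limma voom on the recovered reads and without WT replicate 3, settings that called 435, 317 and 726 genes in all against 83 as reported. One member, Cacna1g, was higher without overlap, against 14.1% of all genes tested, and 1, Gem, was lower without overlap, against 12.4%. The 2 together compare with 26.4% of all genes in either direction. Their median log2 fold change was -0.01, the same as the -0.01 of all genes tested.

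**Figure D4:**
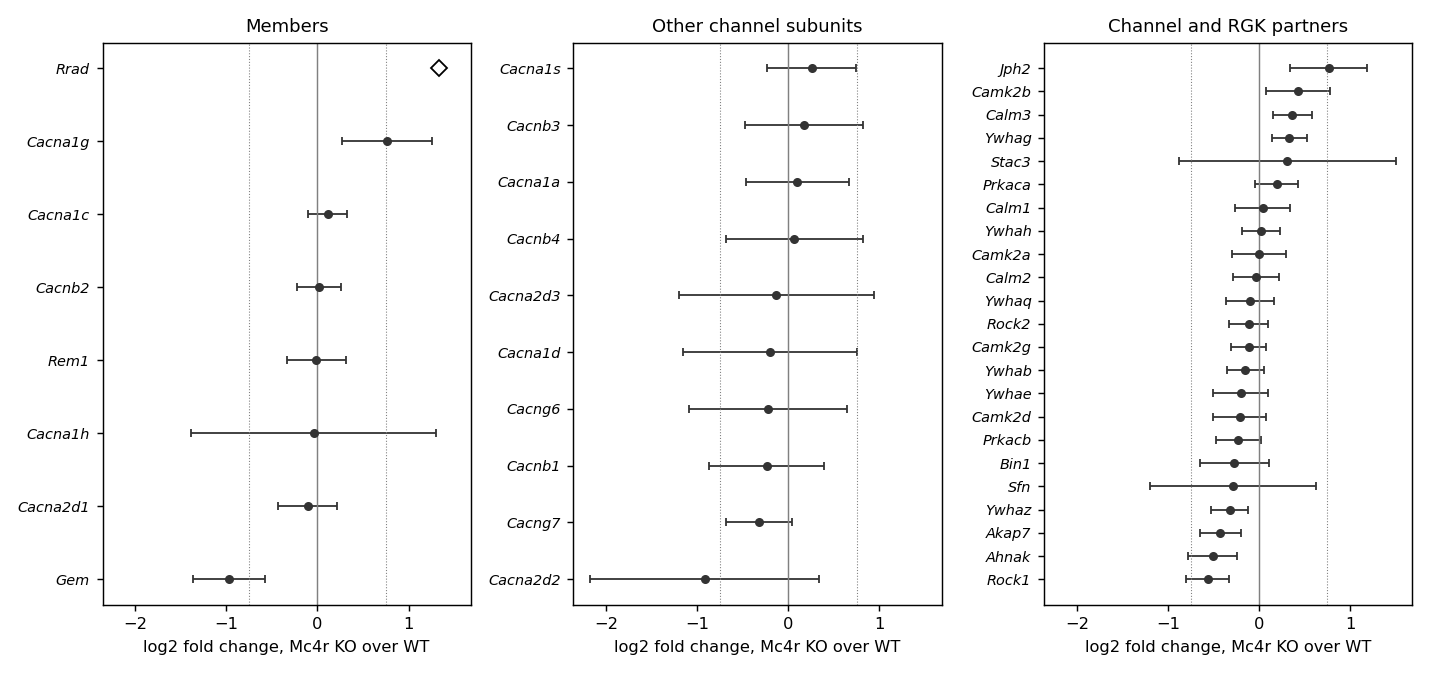
Log2 fold change of Mc4r KO over WT for the members (left), the other calcium channel subunits that could be tested (middle) and the genes of channel and RGK partners that could be tested (right), from limma on log2(FPKM + 0.1), with 95% intervals as bars and dotted lines at the threshold of 0.75 in either direction. Rrad (1.33) is drawn as an open diamond with no interval because it was chosen by its rise. Gem (-0.97) and Cacna1g (0.76) are the members whose intervals leave out 0.

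The remaining voltage-gated calcium channel genes make up 21 further subunits, most of them known from neurons, skeletal muscle or endocrine cells. Of these, 10 passed the filter on low values, 11 did not, and 3 (Cacna1f, Cacng2 and Cacng3) had 0 reads in all 6 libraries. Limma called 0 of the 10, against 0.46% of all genes tested, with 0 at an unadjusted p under 0.05, against 20.9%, and 0 called in any of the 20 alternatives, and their adjusted p ran from 0.288 to 0.935. The median log2 fold change was -0.17 against -0.01 for all genes, with 4 above 0 and 6 below. Cacna1s, the L-type pore of skeletal muscle, was the most abundant pore of this list at 2.18 ± 0.511 FPKM in WT and 2.59 ± 0.446 FPKM in Mc4r KO hearts, below Cacna1c in every library. Cacng7 and Cacng6, gamma subunits, stood at 2.56 and 1.60 FPKM in WT and at 2.03 and 1.38 FPKM in Mc4r KO hearts. The beta subunit genes Cacnb1 and Cacnb3, at 1.34 and 1.03 FPKM in WT and 1.13 and 1.14 FPKM in Mc4r KO hearts, were also well below Cacnb2. Among the 10 tested, the largest shift belonged to Cacna2d2, an alpha2delta gene named here after its values were seen. It measured 0.393, 0.342 and 1.28 FPKM in WT and 0.397, 0.108 and 0.329 FPKM in Mc4r KO hearts. Its high value was that of WT replicate 3, the library with the high atrial markers, and the other 5 libraries overlapped. Of the 11 not tested, Cacna1i (5 to 10 reads in WT and 0 to 2 in Mc4r KO hearts) and Cacng4 (2 to 3 and 0 to 1 reads) were lower without overlap, and are also named after their values were seen. Cacng4 was not above the floor of 3 reads in any library, and Cacna1i rests on few reads. The shares of genes without overlap cover tested genes only, so no difference is read from these genes.

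A list of 26 genes whose products bind RGK proteins or the channel, or act on either, was treated in the same way. Of these, 23 were tested and limma called 0, against 0.46% of all genes, with adjusted p from 0.0615 to 0.996. At an unadjusted p under 0.05 there were 8, against 20.9% of all genes. Without overlap, 4 were higher in Mc4r KO hearts (Calm3, Ywhag, Camk2b and Jph2) and 6 were lower (Ywhaz, Rock1, Camk2g, Prkacb, Akap7 and Ahnak), named here to account for the count, against 14.1% and 12.4% of all genes tested. The median log2 fold change of the 23 was -0.11. Jph2, which encodes junctophilin and holds the cell membrane close to the calcium store where L-type channels sit, measured 81.7, 109 and 125 FPKM in WT and 169, 207 and 155 FPKM in Mc4r KO hearts. All Mc4r KO values were above all WT values. Its log2 fold change was 0.76 (SE 0.18, 95% interval 0.34 to 1.18) with an adjusted p of 0.0956 in limma, and it was called in 3 alternatives, with array weights, with limma voom and without WT replicate 3.

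The calmodulin genes, whose product senses calcium at the channel and binds RGK proteins, differed among themselves. Calm3 measured 60.6 ± 4.69 FPKM in WT and 78.0 ± 4.12 FPKM in Mc4r KO hearts, with a log2 fold change of 0.37 and an adjusted p of 0.101 in limma. Calm2 stood at 56.5 ± 6.94 and 54.8 ± 2.18 FPKM. Prkaca, the catalytic subunit of protein kinase A, measured 102 ± 11.6 FPKM in WT and 116 ± 2.89 FPKM in Mc4r KO hearts (adjusted p = 0.334 in limma). Ywhae, an adaptor that binds phosphorylated proteins, RGK proteins among them, measured 131 ± 21.3 and 113 ± 3.38 FPKM (adjusted p = 0.417 in limma). Rock1, a kinase that Gem is known to bind, had the lowest adjusted p of the list and is named after its values were seen. It measured 14.5, 13.8 and 12.1 FPKM in WT and 9.55, 9.20 and 8.41 FPKM in Mc4r KO hearts, without overlap, with a log2 fold change of -0.57 and an adjusted p of 0.0615 in limma.

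**Figure D5:**
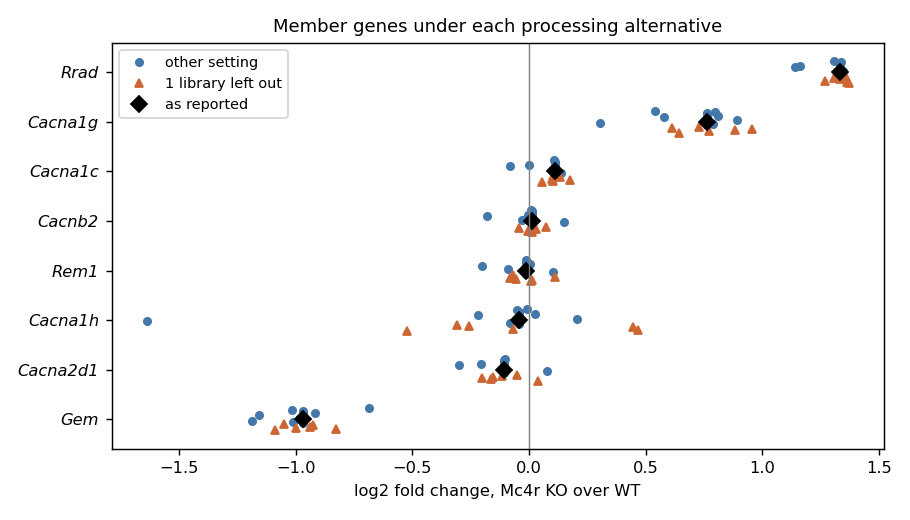
Log2 fold change of Mc4r KO over WT for the 8 members with reads, as reported (diamonds), with 1 library left out (triangles) and under other settings of the processing (circles). Rrad (1.14 to 1.37), Cacna1g (0.30 to 0.96) and Gem (-1.19 to -0.68) keep their side of 0 throughout, while the other 5 cross it in at least 2 of the 19 alternatives, and Cacna1h spreads from -1.64 to 0.47.

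Ordered by mean FPKM, the WT hearts had Rrad first, then Cacna2d1, Cacna1c and Cacnb2, each separated from the next without overlap. Rem1, Gem, Cacna1h and Cacna1g followed, and each of these overlapped its neighbour. In Mc4r KO hearts the first 4 places were the same, though Cacna2d1 and Cacna1c then overlapped. Below them came Rem1, Cacna1g, Cacna1h and Gem, again with overlap between neighbours, so that Gem went from the sixth place to the eighth and Cacna1g from the eighth to the sixth. Rem2 was last in both.

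The pattern of Rrad over the 6 libraries was compared with that of the 11296 other genes whose mean FPKM reached 1, by Pearson's r of log2(FPKM + 0.1). Among the 5 most similar genes were Gpx8 (r = 0.995), Wdfy1 (0.989), Fas (0.988) and Fam117b (0.988). Their sizes differed widely, from Gpx8 at 15.0 to 15.2 FPKM in WT and 16.8 to 17.03 in Mc4r KO libraries to Wdfy1 at 1.03 to 1.19 and 4.21 to 4.46. Among the members, r with Rrad was -0.94 for Gem, 0.82 for Cacna1g and 0.53 for Cacna1c, and between -0.25 and 0.05 for Cacna2d1, Rem1, Cacnb2 and Cacna1h. With 6 libraries in 2 groups, such an r mostly restates which genes were separated between WT and Mc4r KO hearts, and it is given as a description.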

How the data were processed

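RNA from 3 WT and 3 Mc4r KO mouse hearts was sequenced in paired ends after enrichment of polyadenylated transcripts, with 1 library per mouse, and samples were grouped by their labels. Per the labels, the reads were aligned with HISAT2 2.0.5 to mm10. The authors counted reads on genes with featureCounts and deposited FPKM with gene lengths, and these lengths equalled the exon lengths of GENCODE M21 for all 9 members. The use of strand is not given in the sources used here. Of the gene identifiers, 99.8% were in M21.

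Because FPKM is not a count, differences were tested with limma 3.58.1 (R 4.3.3) on log2(FPKM + 0.1) with the empirical Bayes trend, no covariate, two-sided p-values and Benjamini-Hochberg adjustment over the 18035 genes whose mean FPKM reached 0.1. On this scale the change of low genes is understated. FPKM times length divided by the step of each library was whole within 0.05 for 100% of the values. A floor of 3 reads stood for values of 0. The 14691076 to 16047003 counts on genes per library limit the precision of genes with few reads. They are fewer than the clean reads that the study lists for each library. Script and thresholds were tested on simulated data. A sum over genes was compared with an exact permutation test. Sequences were read from the M21 transcripts, and copies were searched as shared words of 50 bases. Figures were drawn with matplotlib 3.10.9.

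The members and the lists were chosen with earlier results of these data known. Named genes are the members, the 5 most abundant genes of each of the other lists, genes of these lists that were called or that had no overlap with an absolute log2 fold change above 0.75, and the 5 genes most correlated with Rrad, of which 1 is not reported here. Genes outside this rule (Rock1, Cacna2d2, Cacna1i, Cacng4 and the partners listed as having no overlap) were chosen after their values were seen. Replicate numbers were not used to pair the mice. For libraries of the same number, correlations of the deviations from group means were -0.14, 0.01 and -0.08. With so few mice these values cannot decide whether the numbers pair them. Of the 9 marker lists, those for cardiomyocytes, atrium, nodes and fibroblasts are described with the results. In the remaining lists the sums overlapped between the groups, though some single genes did not. The macrophage markers Csf1r and Cd68 were lower in Mc4r KO hearts without overlap, and Adgre1 overlapped. Csf1r stood at 12.1 to 15.6 FPKM in WT and 9.31 to 11.9 FPKM in Mc4r KO hearts, and Cd68 at 4.98 to 7.19 and 4.00 to 4.87 FPKM. Tie1 (endothelium) and Stmn2 (neurons) were higher in Mc4r KO hearts without overlap. Among all genes tested, 14.1% were higher and 12.4% lower without overlap. Tie1 stood at 23.5 to 26.9 FPKM in WT and 32.7 to 35.5 FPKM in Mc4r KO hearts, and Stmn2 at 0.859 to 1.08 and 1.61 to 1.87 FPKM. In the other lists, summed FPKM in WT and Mc4r KO hearts was 1.04 to 2.24 and 1.27 to 2.29 for skeletal muscle, 42.5 to 73.1 and 39.0 to 112 for smooth muscle, 130 to 163 and 143 to 169 for endothelium, 21.1 to 28.4 and 17.6 to 21.9 for macrophages, and 1.97 to 2.91 and 1.85 to 2.98 for neurons, where Th was at 0.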

Additional observations from a re-analysis of the deposited data

How the results depend on the processing

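The number of genes called by limma, 83 with 57 higher and 26 lower in Mc4r KO hearts, depended on the processing. It was 44 with a pseudocount of 1, 22 with no filter on low values, 147 with a mean FPKM of at least 1, 49 with quantile normalization (30 higher), 41 with FPKM scaled to their sum outside the mitochondrial chromosome (16 higher), 21 without the trend, 435 with array weights, 2 with the mitochondrial share as a covariate, 317 with limma voom on the recovered reads and 204 with protein-coding genes only. With 1 library left out it ran from 7 to 726, the highest without WT replicate 3, and the other 5 gave 7 to 14. Scaling outside the mitochondrial chromosome shifted the median of all genes by -0.18 (log2). The causes of these differences were not tested.

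With the replicate number as a block, 11 genes were called. The numbers are not known to pair the mice, and no call of a member, subunit or partner changed under this block.

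Among the members other than Rrad, 0 were called as reported. The number was 1 with a mean FPKM of at least 1 and 1 with protein-coding genes only (Gem in both), 2 with array weights and 2 with limma voom (Gem and Cacna1g), and 0 to 2 with 1 library left out, the 2 being without WT replicate 3. Among the partners it was 1 with array weights, 1 with limma voom and 0 to 1 with 1 library left out (Jph2 each time). Rrad measured 1.16 with quantile normalization and 1.14 with scaling outside the mitochondrial chromosome.

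The sign of a log2 fold change turned for 5 members near 0. Under quantile normalization the values were 0.0062 for Rem1, -0.0012 for Cacna1c, 0.027 for Cacna1h and -0.0043 for Cacnb2. Scaling outside the mitochondrial chromosome gave -0.082 for Cacna1c and -0.18 for Cacnb2. Array weights gave 0.21 for Cacna1h and -0.030 for Cacnb2, and the mitochondrial covariate gave 0.10 for Rem1 and 0.077 for Cacna2d1. With 1 library left out the log2 fold change ran from -0.080 to 0.11 for Rem1, -0.52 to 0.47 for Cacna1h, -0.043 to 0.071 for Cacnb2 and -0.20 to 0.040 for Cacna2d1. The difference in the summed FPKM of the L-type genes, -0.103 as reported, was -5.07 with scaling outside the mitochondrial chromosome, -2.49 with quantile normalization and -1.01 to 1.05 with 1 library left out, with exact permutation p from 0.3 to 0.9. Depth limits Gem most among the members tested, with 38 to 112 reads per library.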
